A study of Mus musculus with 6 samples.

Results

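The ERK feedback genes described here are Dusp1, Dusp4, Dusp5, Dusp6, Spry1, Spry2, Spry4, Spred1, Spred2 and Egr1, chosen by symbol and matched to the table by their Ensembl mouse identifiers. All 10 were found among the 23644 genes listed, and all 10 were among the 11171 genes that passed the expression filter. They were measured by RNA sequencing in cultured 4T1 cells, a mouse mammary tumour line. There were 3 libraries from Carmil3 knockout cells, which per the labels descend from single-cell clones, and 3 libraries from wild-type control cells. Both were grown in serum-containing medium, and no stimulus or inhibitor is named. Carmil3 encodes a member of the CARMIL family, which binds actin capping protein, and the comparison asks which transcripts differ between the genotypes. A difference that came with cloning cannot be told apart from an effect of the knockout. The method of knockout and the number of clones are not stated, nor whether same-genotype libraries are separate cultures. A p-value here thus refers to variation among these libraries, part or all of which may be technical.

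ERK is the last kinase of the RAS, RAF and MEK cascade, which growth factor receptors switch on. Active ERK drives transcription of genes whose products damp the same cascade, so these transcripts are widely read as a record of recent ERK output. Dual-specificity phosphatases of the Dusp family remove phosphate from ERK and related kinases. Sprouty (Spry) and Spred proteins act further up, around receptors, RAS and RAF. Egr1 is an immediate-early transcription factor gene that responds to ERK within minutes of stimulation.

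The table gives FPKM, reads per kilobase of exon scaled to the size of the library, and its steps gave library totals of 17779118 to 19046808 reads, which are relative. Carmil3 itself was listed at 0, 0.0118 and 0.0241 FPKM in the knockout libraries and at 0.0360, 0.0246 and 0.0117 FPKM in the wild-type libraries, too low to check the labels. The mammary epithelial markers Epcam, Krt7 and Cldn4 were near 0 in the knockout cells, at no more than 0.195 FPKM in any library, and at 18.7 to 30.5 FPKM in the wild-type cells. Krt8 and Krt18 were high in both but lower in knockout cells, with means of 217 and 227 FPKM against 470 and 522 FPKM in wild-type cells. Cdh1 and Krt19 were lower as well, with means of 0.773 and 1.03 FPKM in knockout and 12.4 and 5.10 FPKM in wild-type cells. The 7 epithelial markers summed to between 428 and 473 FPKM in knockout and between 1029 and 1126 FPKM in wild-type libraries. Of 12 leukocyte, endothelial and adipocyte markers 8 were listed, at no more than 0.115 FPKM. Of the fibroblast markers Pdgfra measured 17.6 ± 0.272 FPKM in knockout and 10.1 ± 0.135 FPKM in wild-type cells (SD, n = 3 each), and the others listed, Dcn and Fap, stayed at or below 0.161 FPKM. The part of these marker differences in the results was not tested. In cultures measured in bulk, fewer cells of a type and less RNA per cell cannot be told apart. Knockout replicate 3 lay apart from the other knockout libraries, at -15.5 on the second principal component, which held 11.8% of the variance, against 6.73 and 9.56.

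Of the 10 genes, 4 rose in the knockout cells (Dusp4, Egr1, Dusp6 and Spry2), 2 fell (Spry4 and Spry1) and 4 did not pass the test (Dusp1, Dusp5, Spred1 and Spred2). Both directions occurred among the Sprouty genes, while of the 4 Dusp genes 2 rose and 2 did not pass. The test was limma on log2(FPKM + 1), and a gene was called at a Benjamini-Hochberg adjusted p under 0.05 across the whole table tested. By that rule 16.9% of all genes tested were higher, 18.7% were lower and 35.6% were called in either direction. The median log2 change of the 10 genes was 0.08, against -0.01 over all genes tested. The values of the genotypes did not overlap for 7 of the 10 genes, where 50.5% of all genes tested had no overlap, 24.2% with higher and 26.4% with lower values in the knockout libraries. Without knockout replicate 3 the counts were again 4 and 2, where 18.3% of all genes tested were higher, 19.9% were lower and 38.1% were called in either direction. Tested by limma against a 1.5-fold change, 0 of the 10 passed, with 2 at an unadjusted p under 0.05. In that test 1.06% of all genes were higher, 1.73% were lower and 2.78% were called in either direction.

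**Figure D1:**
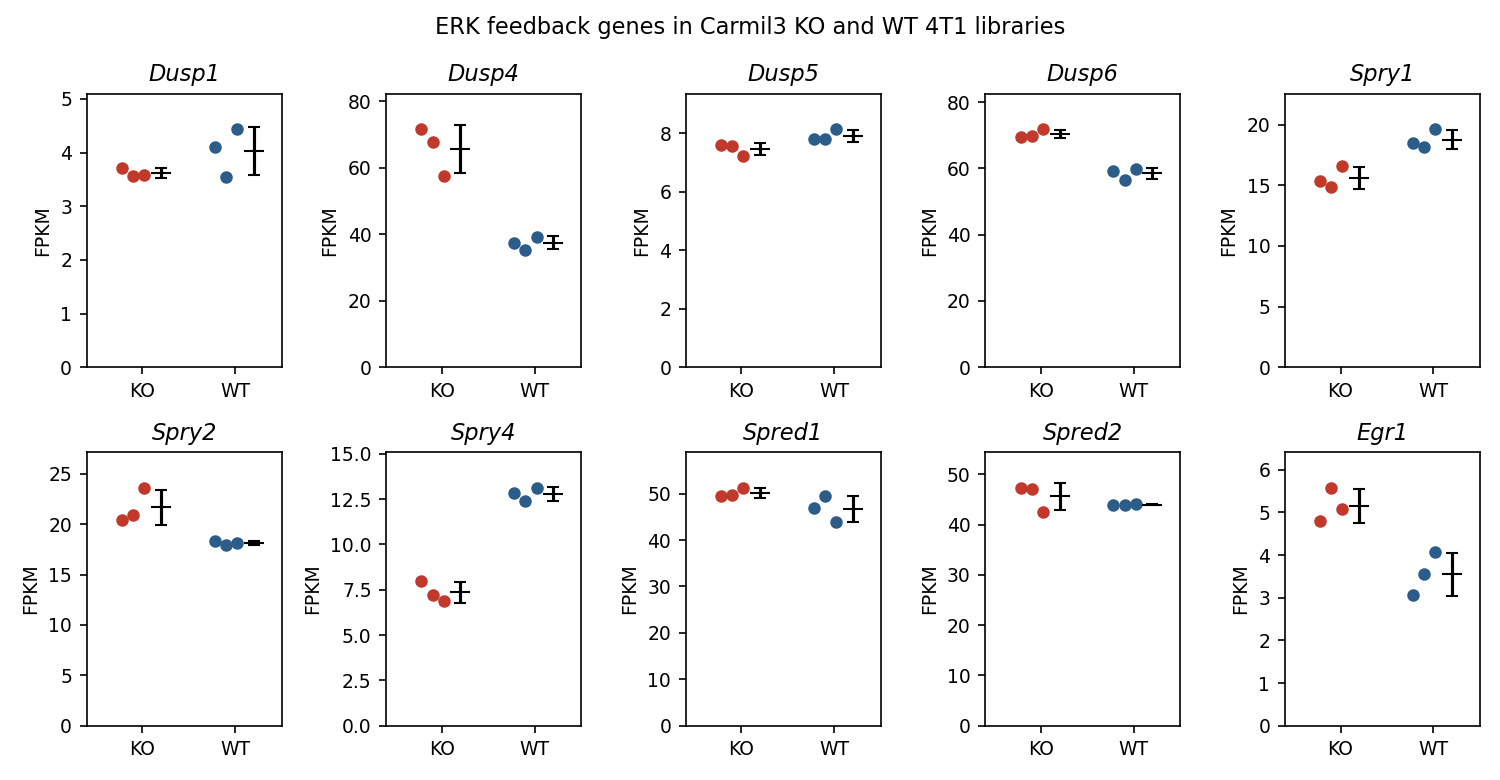
FPKM of each ERK feedback gene in the 3 knockout (red) and 3 wild-type (blue) libraries, with black marks for the mean and SD; every axis starts at 0. Knockout points lie above all wild-type points for Dusp4, Dusp6, Spry2 and Egr1, and below them for Spry1, Spry4 and Dusp5.

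In level, on the FPKM scale that corrects for length, Dusp6 was the highest of the 10 in both genotypes, at 70.4 ± 1.28 FPKM in knockout and 58.6 ± 1.70 FPKM in wild-type cells (SD, n = 3 each, as for all such values below). In knockout cells the order below it was Dusp4, Spred1, Spred2, Spry2, Spry1, Dusp5, Spry4, Egr1 and Dusp1. There the libraries of Dusp6 and Dusp4 overlapped, and so did those of Dusp5 and Spry4. In wild-type cells the order was Dusp6, Spred1, Spred2, Dusp4, Spry1, Spry2, Spry4, Dusp5, Dusp1 and Egr1, and the libraries of Spred1 and Spred2, of Spry1 and Spry2, and of Dusp1 and Egr1 overlapped. Dusp4 thus stood next to Dusp6 in knockout cells and behind Dusp6, Spred1 and Spred2 in wild-type cells. Recovered reads per gene and library lay between 209 and 6382. The lowest belong to Dusp1, one of 3 genes, with Spry2 and Spry4, whose values did not come out as whole reads within 0.25 of a read at the annotated length, so their read numbers are approximate.

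Of the 4 Dusp genes in the set, Dusp4 had the largest change. Dusp4 encodes a nuclear phosphatase that acts on ERK and other MAP kinases. It measured 71.5, 67.8 and 57.4 FPKM in knockout replicates 1 to 3, and 37.4, 35.4 and 39.3 FPKM in wild-type replicates 1 to 3. Every knockout library was above every wild-type library, and knockout replicate 3 was the lowest of its group. The ratio of the means was 1.76, the log2 change was 0.79 ± 0.08 (SE) and the adjusted p was 0.000181. The size of this change lay at the 96.0th percentile of all genes tested. Without knockout replicate 3 the log2 change was 0.88.

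Dusp6, which encodes a cytoplasmic phosphatase selective for ERK, rose by less but more evenly. Its values were 69.4, 70.0 and 71.9 FPKM in the knockout libraries and 59.3, 56.6 and 59.8 FPKM in the wild-type libraries. The groups did not overlap, and both were tight, with a coefficient of variation of 1.82% in knockout and 2.91% in wild-type cells. The log2 change was 0.26 ± 0.05 (SE), a ratio of 1.20, with an adjusted p of 0.00422.

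Dusp5 and Dusp1 did not pass the test. Dusp5 encodes a nuclear phosphatase specific for ERK and was at 7.60, 7.56 and 7.22 FPKM in knockout and 7.81, 7.80 and 8.14 FPKM in wild-type libraries. The groups did not overlap, but the distance was small: the log2 change was -0.08, with a 95% interval from -0.20 to 0.05 and an adjusted p of 0.311. Dusp1 encodes a nuclear phosphatase that favours the stress-activated MAP kinases. It measured 3.72, 3.57 and 3.58 FPKM in knockout and 4.10, 3.55 and 4.44 FPKM in wild-type libraries, which overlap. Its log2 change was -0.12, with a 95% interval from -0.30 to 0.06 and an adjusted p of 0.269. An annotated antisense gene shares 547 exonic bases with Dusp5, and the Dusp1 model shares 11 exonic bases with Ergic1 on the opposite strand. The strand setting of the counting is not stated, so reads within the shared bases cannot be told apart. These are 547 of 2473 exonic bases for Dusp5 and 11 of 3311 for Dusp1.

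Summed over the 4 Dusp genes, FPKM came to 152, 149 and 140 in the knockout libraries and 109, 103 and 112 in the wild-type libraries. Dusp4 and Dusp6 made up most of the sum in each library. Dusp4 gave 44.5 ± 3.12% of it in knockout and 34.6 ± 0.510% in wild-type cells, and Dusp1 gave 2.46 ± 0.0811% in knockout and 3.73 ± 0.275% in wild-type cells. The ratio of Dusp4 to Dusp6 was 1.03, 0.969 and 0.799 in the knockout libraries, against 0.630, 0.625 and 0.657 in the wild-type libraries. Per length, Dusp4 was ahead of Dusp6 in knockout replicate 1, and Dusp6 was ahead in the other libraries, by least in knockout replicate 2.

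Promoter sequence was at hand for 7 of the 10 genes (RefSeq, GRCm38.p6), as the 250 bases before each RefSeq start. That start is the GENCODE gene start for Dusp6, Spry1 and Spry2. For Dusp5 it lies 36 bases and for Spred2 67 bases inside the GENCODE gene model, and for Spred1 it lies before the model. For Dusp1 it lies 53656 bases inside the model, whose start is far upstream. The 3 phosphatase promoters are shown because Dusp6 rose while Dusp1 and Dusp5 did not pass the test. Capitals mark matches on either strand to the cAMP response element TGACGTCA, its core TGACG and the AP-1 site TGANTCA. They also mark the ETS site CCGGAA, the GC box GGGCGG and the CArG box bound by SRF. The shorter ETS core GGAA was not searched. Every TGACGTCA also contains TGACG, and adjoining matches run together.
Dusp6: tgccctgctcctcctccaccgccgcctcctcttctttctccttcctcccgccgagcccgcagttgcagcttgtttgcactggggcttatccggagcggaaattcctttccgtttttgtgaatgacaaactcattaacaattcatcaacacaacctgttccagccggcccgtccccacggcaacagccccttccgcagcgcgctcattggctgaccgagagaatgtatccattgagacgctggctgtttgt
Dusp1: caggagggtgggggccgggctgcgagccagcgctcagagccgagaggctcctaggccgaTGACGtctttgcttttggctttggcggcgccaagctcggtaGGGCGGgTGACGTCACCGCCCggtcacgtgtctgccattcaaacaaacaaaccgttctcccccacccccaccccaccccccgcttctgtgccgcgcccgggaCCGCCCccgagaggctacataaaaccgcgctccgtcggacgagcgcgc
Dusp5: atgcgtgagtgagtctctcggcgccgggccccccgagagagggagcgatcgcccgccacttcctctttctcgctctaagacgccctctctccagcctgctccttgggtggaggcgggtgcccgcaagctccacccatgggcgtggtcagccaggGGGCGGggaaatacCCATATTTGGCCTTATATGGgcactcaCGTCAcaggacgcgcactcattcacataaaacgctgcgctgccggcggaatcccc
The Dusp6 stretch (chr10:99262981-99263230, plus strand) held none of the motifs searched. The Dusp1 stretch (chr17:26508473-26508722, minus strand) held 1 TGACGTCA, beginning 143 bases before the start, a motif found in 1.55% of the 32851 promoter windows of this length. It also held GC boxes, which 32.7% of all windows hold. The Dusp5 stretch (chr19:53528895-53529144, plus strand) held 2 CArG boxes side by side, beginning 82 and 72 bases before the start, and also 1 GC box; 1.47% of all windows hold a CArG box. The core TGACG was found in Dusp1, Dusp5 and Spred2 and in 17.8% of all windows. None of the 7 windows held TGANTCA (6.75% of all windows) or CCGGAA (12%). These matches describe letters in a window, and say nothing of binding.

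The Sprouty genes went both ways. Sprouty proteins restrain signalling from receptor tyrosine kinases to RAS and RAF, and their genes are induced by the growth factors they oppose. Spry4 fell: it measured 7.99, 7.22 and 6.86 FPKM in the knockout libraries and 12.8, 12.4 and 13.1 FPKM in the wild-type libraries, far apart. The log2 change was -0.72 ± 0.07 (SE), a ratio of wild type to knockout of 1.74, with an adjusted p of 7.01e-05, the smallest among the 10 genes. Spry1 fell by less, with 15.3, 14.9 and 16.6 FPKM in knockout against 18.5, 18.1 and 19.6 FPKM in wild-type libraries. Its groups did not overlap, the log2 change was -0.25 ± 0.06 (SE) and the adjusted p was 0.0133, which became 0.0528 without knockout replicate 2. Of its 2906 exonic bases 710 are shared with Gm42922 on the opposite strand, which was listed at no more than 0.0531 FPKM, and reads there cannot be told apart.

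Spry2 rose. Its libraries held 20.4, 21.0 and 23.6 FPKM in knockout and 18.4, 17.9 and 18.2 FPKM in wild-type cells. Every knockout library was above every wild-type library, knockout replicate 3 was the highest, and the wild-type values lay within a coefficient of variation of 1.16%. The log2 change was 0.24 ± 0.06 (SE), with an adjusted p of 0.0191. This call was lost without wild-type replicate 1 (adjusted p = 0.0624), without wild-type replicate 2 (adjusted p = 0.0524) and without the expression filter (adjusted p = 0.0505). Without knockout replicate 3 the log2 change was 0.18 and the call held.

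The make-up of the Sprouty transcripts and their sum both differed between the genotypes in these libraries. Neither difference was tested. Summed FPKM of the Spry genes came to 43.8, 43.1 and 47.1 in the knockout libraries and 49.7, 48.5 and 51.0 in the wild-type libraries. Spry2 made up 48.5 ± 1.73% of the sum in knockout and 36.6 ± 0.736% in wild-type cells. Spry4 made up 16.5 ± 1.85% in knockout and 25.7 ± 0.126% in wild-type cells, and Spry1 made up 35% (SD 0.355) in knockout and 37.7 ± 0.687% in wild-type cells. The ratio of Spry2 to Spry4 was 2.56, 2.90 and 3.44 in the knockout libraries, against 1.43, 1.45 and 1.39 in the wild-type libraries. Wild-type cells therefore held Spry1 and Spry2 at near-equal levels per length, and in knockout cells Spry2 led in each library.

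**Figure D2:**
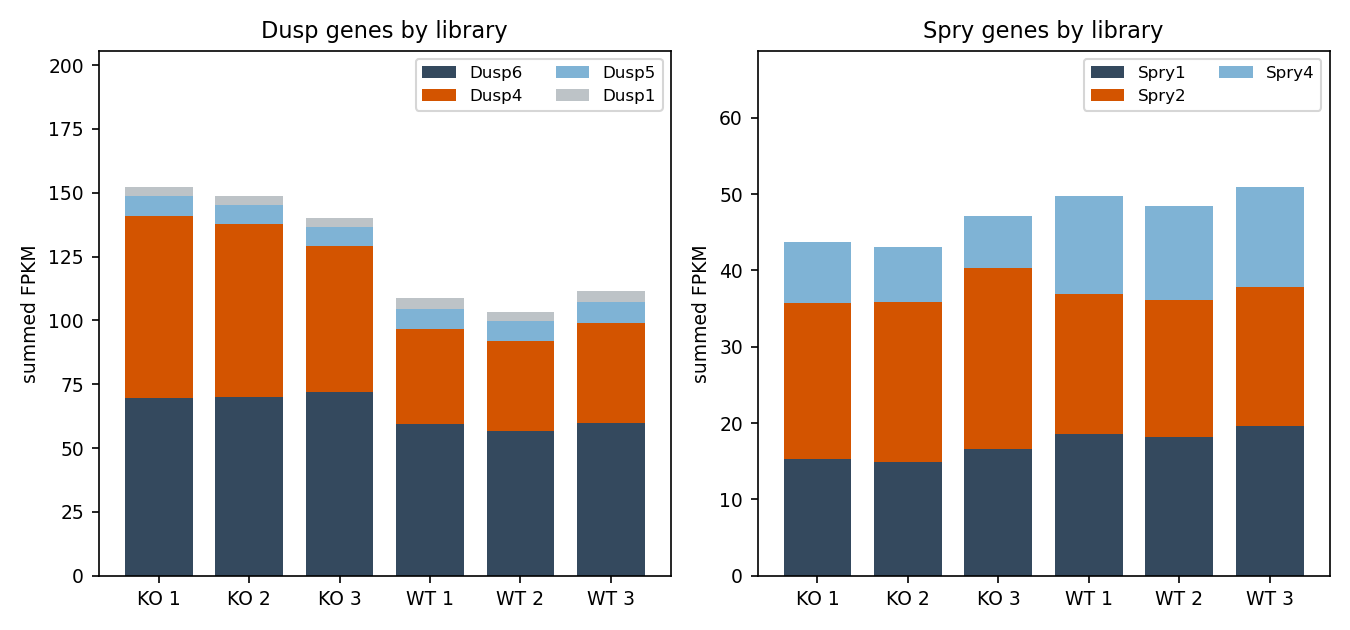
Summed FPKM of the 4 Dusp genes (left) and 3 Spry genes (right) in each library, knockout replicates first, with each gene as a coloured segment and axes from 0. The Dusp4 and Spry2 segments are taller in every knockout library than in any wild-type library, and the Spry4 segment is shorter.

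The promoters of Spry2 and Spry1 are shown because these genes had like levels in wild-type cells and moved in opposite directions, with capitals as above.
Spry2: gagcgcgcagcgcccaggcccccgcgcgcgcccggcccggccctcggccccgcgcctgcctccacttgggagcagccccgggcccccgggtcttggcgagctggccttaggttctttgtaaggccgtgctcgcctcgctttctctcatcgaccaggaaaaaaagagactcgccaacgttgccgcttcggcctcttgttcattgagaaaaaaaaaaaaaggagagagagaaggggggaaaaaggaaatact
Spry1: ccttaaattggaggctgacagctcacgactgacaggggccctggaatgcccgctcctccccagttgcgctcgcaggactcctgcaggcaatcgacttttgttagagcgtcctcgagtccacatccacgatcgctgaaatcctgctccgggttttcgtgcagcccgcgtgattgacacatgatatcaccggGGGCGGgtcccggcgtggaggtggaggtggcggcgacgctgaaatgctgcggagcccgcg
The Spry2 stretch (chr14:105896820-105897069, minus strand) held none of the motifs searched, and the Spry1 stretch (chr3:37639697-37639946, plus strand) held 1 GC box, beginning 60 bases before the start. Both were 62.4% G and C, above the median of 52.4% over all windows.

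The Spred genes did not pass the test. Spred proteins bring the RAS inhibitor neurofibromin to the cell membrane. Spred1 was at 49.4, 49.6 and 51.3 FPKM in knockout and 46.8, 49.4 and 43.9 FPKM in wild-type libraries, with a log2 change of 0.10, a 95% interval from -0.03 to 0.23 and an adjusted p of 0.204. Spred2 was at 47.3, 47.0 and 42.5 FPKM in knockout and 43.9, 43.8 and 44.1 FPKM in wild-type libraries, with a log2 change of 0.05, a 95% interval from -0.08 to 0.18 and an adjusted p of 0.508. The groups overlapped for both genes, and for Spred2 the low value of knockout replicate 3 lay under all wild-type values. The intervals leave room for a change of up to 1.17-fold in Spred1 and 1.13-fold in Spred2 on this scale. Summed over both genes, FPKM was 95.7 ± 1.68 in knockout and 90.7 ± 2.64 in wild-type cells.

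Egr1, the transcription factor of the set, rose. It measured 4.80, 5.58 and 5.09 FPKM in the knockout libraries and 3.05, 3.55 and 4.06 FPKM in the wild-type libraries. The groups did not overlap, but the wild-type libraries spread widely, with a coefficient of variation of 14.2% against 7.64% in knockout cells. The log2 change was 0.44 ± 0.09 (SE), a ratio of 1.45, with an adjusted p of 0.00683. At this low level the added 1 FPKM matters: with a pseudocount of 0.1 the log2 change was 0.53, and with 5 it was 0.25.

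The genes lie on several chromosomes of GRCm38 (mm10), with positions from GENCODE M21. The phosphatase genes are Dusp4 (ENSMUSG00000031530) at chr8:34807297-34819894 on the plus strand, Dusp6 (ENSMUSG00000019960) at chr10:99263231-99267489 on the plus strand, Dusp5 (ENSMUSG00000034765) at chr19:53529109-53542431 on the plus strand and Dusp1 (ENSMUSG00000024190) at chr17:26505590-26562128 on the minus strand. The Sprouty genes are Spry1 (ENSMUSG00000037211) at chr3:37639947-37644598 on the plus strand, Spry2 (ENSMUSG00000022114) at chr14:105891947-105896819 on the minus strand and Spry4 (ENSMUSG00000024427) at chr18:38586247-38601415 on the minus strand. The Spred genes are Spred1 (ENSMUSG00000027351) at chr2:117121374-117182279 on the plus strand and Spred2 (ENSMUSG00000045671) at chr11:19924375-20024026 on the plus strand, and Egr1 (ENSMUSG00000038418) is at chr18:34859823-34864984 on the plus strand. Some lie in stretches where the neighbouring genes also differed. Over the 20 tested genes nearest on either side, the median log2 change was -0.18 around Egr1 and -0.16 around Spry4, both on chromosome 18, and -0.02 around Dusp4 on chromosome 8. It was 0.03 around Dusp6 (chromosome 10), 0.03 around Spry2 (chromosome 14) and 0.07 around Spry1 (chromosome 3). For each of the 6 called genes the change was farther from 0 than that of its surroundings. These genes were picked for passing the test and are set against a median of many genes, so this outcome was likely beforehand. Set against its neighbours, Egr1 had a log2 change of 0.61 and Spry4 of -0.57, and all 6 calls held. In that fit 26.7% of all genes tested were called in either direction. Around Dusp1 (chromosome 17) and Spred2 (chromosome 11) the neighbours had medians of 0.12 and -0.11, opposite in sign to the gene's own change, and around Dusp5 (chromosome 19) the median of -0.10 was close to it.

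**Figure D3:**
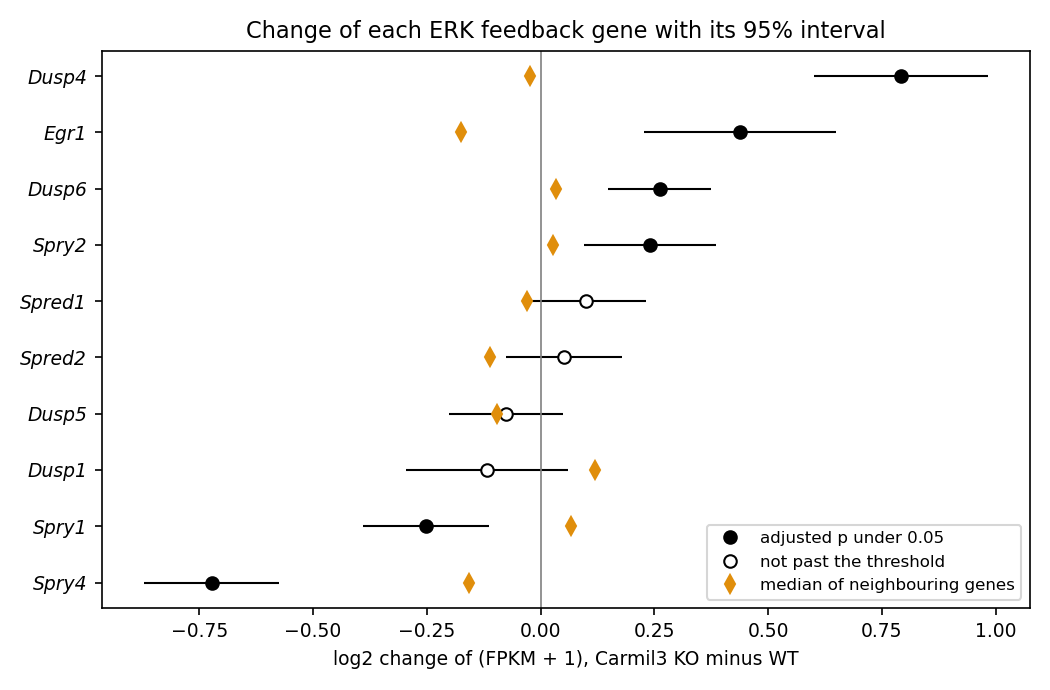
Log2 change of (FPKM + 1), knockout minus wild type, for each ERK feedback gene with its 95% interval from limma; filled points passed an adjusted p of 0.05 and diamonds give the median change of the neighbouring genes, 20 on either side. The genes run from 0.79 for Dusp4 to -0.72 for Spry4, and the intervals of Spred1, Spred2, Dusp5 and Dusp1 include 0.

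The other genes of the pathway were taken in 6 lists of 88 genes in all, of which 77 passed the expression filter. Of these 25 rose, 16 fell and 36 did not pass the test. The 41 called genes are 53.2% of those tested in the lists, where 35.6% of all genes tested were called, 16.9% higher and 18.7% lower. No test of a list was made.

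Of the growth factor ligands 7 of 12 were tested, and 5 rose and 1 fell. Tgfa and Areg, ligands of the EGF receptor, rose to 24.4 ± 0.371 and 17.3 ± 1.84 FPKM in knockout cells, against 13.9 ± 0.459 and 13.3 ± 0.0622 FPKM in wild-type cells. Pdgfa, a PDGF chain, was called higher with a log2 change of 0.26, a call lost without any library other than knockout replicate 2, with adjusted p of up to 0.125. Fgf1 and Nrg1, both under 2 FPKM, were called higher and lost the call without any library other than knockout replicate 3. Pdgfb, the other PDGF chain gene in the list, fell to 4.22 ± 0.119 FPKM in knockout cells, against 16.6 ± 0.301 FPKM in wild-type cells. Hbegf, at 28.6 ± 1.02 FPKM in knockout and 26.0 ± 1.22 FPKM in wild-type cells, did not pass (adjusted p = 0.0979).

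Receptors and adaptors held 2 genes that rose and 4 that fell among 13 tested. Igf1r and the adaptor gene Shc1 rose, with log2 changes of 0.37 and 0.28. Pdgfrb and Fgfr1 fell to 2.06 ± 0.337 and 1.70 ± 0.0946 FPKM in knockout cells, against 9.49 ± 1.06 and 5.66 ± 0.591 FPKM in wild-type cells. Gab1, a docking protein gene, fell with a log2 change of -0.50, and Sos2, a RAS activator gene, was called lower at -0.19. The Sos2 call was lost on centring on neighbours (adjusted p = 0.784), without knockout replicate 2 (adjusted p = 0.0842) and without each wild-type library (adjusted p of up to 0.111), and that of Shc1 on centring (adjusted p = 0.0571). Fgfr2 averaged 21.4 ± 6.77 FPKM in knockout cells, with knockout replicate 3 low at 13.7 FPKM, and 12.4 ± 0.390 FPKM in wild-type cells (adjusted p = 0.0634). Egfr and Erbb3 were below the filter, at no more than 0.287 FPKM in the knockout libraries and between 0.802 and 1.13 FPKM in the wild-type libraries.

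In the cascade itself, 4 of 17 genes rose and none fell by limma, with 1 lower at an unadjusted p under 0.05. The share called was 23.5%, against 35.6% of all genes tested. Calls of lower genes appeared under other settings, with 1 by limma-voom on recovered reads, 2 on centring on neighbours and 1 without wild-type replicate 2. Of all genes tested 20.2%, 13.6% and 15.4% were called lower in these settings. Rps6ka1, a ribosomal S6 kinase gene named after its values were seen, was called lower in each of these. Mapk3, which encodes ERK1, rose to 48.4 ± 0.329 FPKM in knockout cells, against 35.8 ± 2.34 FPKM in wild-type cells (log2 change 0.42). The ribosomal S6 kinase gene Rps6ka3, whose product ERK activates, had a log2 change of 0.26. The scaffold gene Ksr1 (0.28) and the MEK1 gene Map2k1 (0.22) were called higher, and both calls were lost without knockout replicate 1, wild-type replicate 1 or wild-type replicate 2, with adjusted p of up to 0.0851.

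Of 20 other inhibitors Spry3 was not analysed here, and of the 19 tested 5 were called higher and 6 lower. The list holds MAP kinase phosphatase genes whichever MAP kinase their products favour, so not all need act on ERK. Dusp10 and Dusp9, further MAP kinase phosphatase genes, changed in opposite directions. Dusp10 rose to 20.8 ± 0.977 FPKM in knockout cells, against 10.8 ± 0.712 FPKM in wild-type cells, and Dusp9 fell to 9.46 ± 0.310 FPKM, against 19.1 ± 1.53 FPKM. Lrig1 and Errfi1, which encode inhibitors of EGF receptor family signalling, rose with log2 changes of 0.47 and 0.42, and Spred3 rose by 0.32, a call lost on centring on neighbours (adjusted p = 0.213). Il17rd, which encodes an antagonist of FGF signalling, was called higher at 1.98 ± 0.245 FPKM in knockout and 0.799 ± 0.161 FPKM in wild-type cells. The phosphatase genes Dusp3 (log2 change -0.51) and Dusp16 (-0.34) and the RAS GTPase-activating protein gene Dab2ip (-0.37) fell, and so did Dusp8 (-0.54), at under 2 FPKM. Dusp2, at 0.807 ± 0.192 FPKM in knockout and 1.33 ± 0.0879 FPKM in wild-type cells, was called lower and lost the call without knockout replicate 2, wild-type replicate 1 or wild-type replicate 2, with adjusted p of up to 0.0720.

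Of the 6 SRF and ETS-domain factors, which carry ERK signals to promoters, 1 rose and 3 fell. Elk3 rose to 47.6 ± 1.87 FPKM in knockout cells, against 36.6 ± 0.379 FPKM in wild-type cells. Ets2 and Ets1 fell to 3.29 ± 0.220 and 29.6 ± 1.12 FPKM in knockout cells, against 9.44 ± 0.794 and 42.0 ± 1.88 FPKM in wild-type cells. Elk4 was called lower, with a log2 change of -0.24. That call was lost on centring (adjusted p = 0.976), without knockout replicate 1 or 2 and without each wild-type library (adjusted p of up to 0.0898). Srf had a log2 change of 0.06 and did not pass.

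Among the other genes that respond to ERK, 8 of 15 tested rose, 2 were called lower and 5 did not pass. Ccnd1, the cyclin D1 gene, rose to 368 ± 20.02 FPKM in knockout cells, against 178 ± 1.69 FPKM in wild-type cells. The AP-1 genes Fosl1 and Jun rose with log2 changes of 0.78 and 0.67, and the ETS factor gene Etv5 with 0.66. Myc (0.44), Epha4 (0.62) and Phlda1 (0.53) rose too, and Ier3 (0.37) was called higher. Without knockout replicate 1 or 3 or wild-type replicate 1 or 2, or on centring, the Ier3 call was lost, with adjusted p of up to 0.0986. Junb was called lower at -0.43, a call lost on centring (adjusted p = 0.128), and Nr4a1 at -0.24, a call lost on centring (adjusted p = 0.0727), without knockout replicate 1 or 2 and without each wild-type library (adjusted p of up to 0.110). Etv4, often measured with Etv5, was at 58.3 ± 1.83 FPKM in knockout and 55.2 ± 4.04 FPKM in wild-type cells and did not pass. Fos, Fosb and Egr2 were below the filter. The median log2 change of this list was 0.37, the highest of the 6, and that of the cascade was 0.04.

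**Figure D4:**
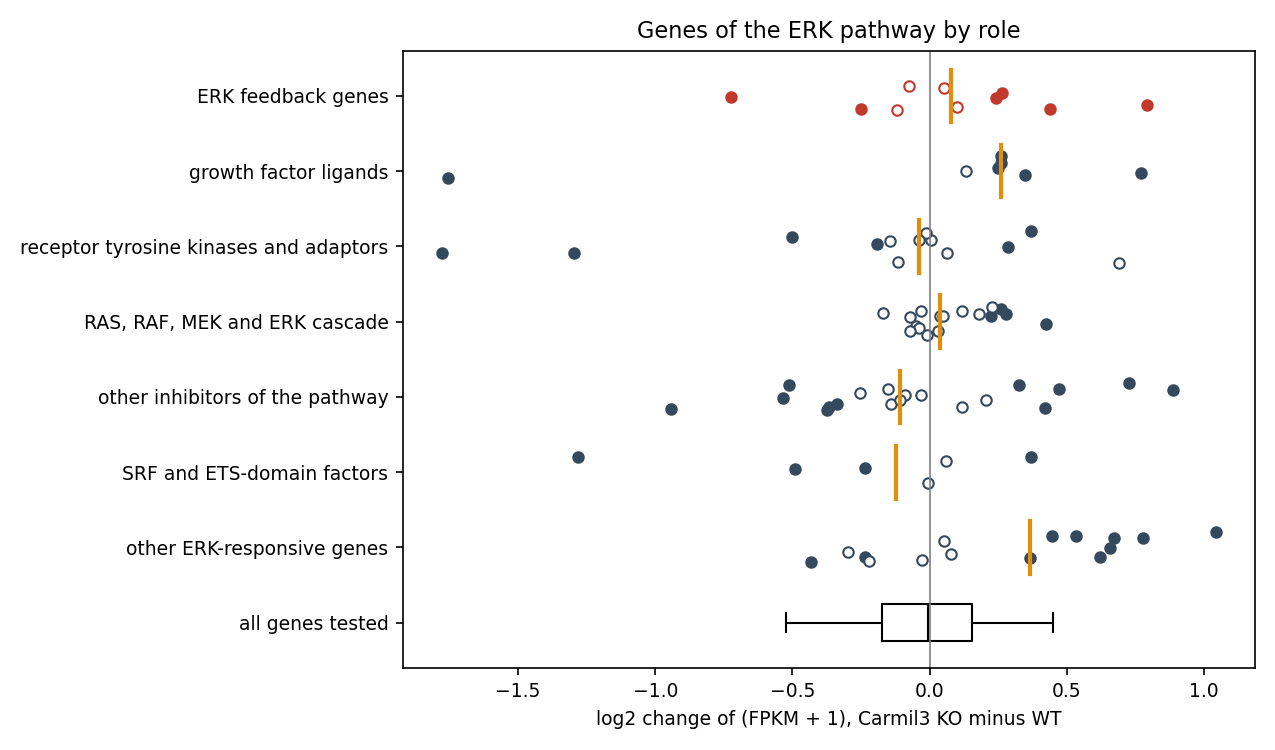
Log2 change of (FPKM + 1), knockout minus wild type, for each tested gene of the ERK feedback genes (red) and 6 pathway lists (dark), with filled points past an adjusted p of 0.05 and an orange line at each median; points are spread vertically for view. The box shows all 11171 genes tested (quartiles, whiskers to the 5th and the 95th percentile); the cascade genes lie within or near its whiskers, and the lists of ligands and receptors hold the lowest points, Pdgfb at -1.76 and Pdgfrb at -1.78.

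Profiles most like those of the 6 called genes were found by the root mean square difference of centred log2(FPKM + 1) values over the 6 libraries, with predicted genes left out. Adamts14 and Smad3 lay nearest to Dusp4, at 0.04 and 0.06. Tmem50a and Tmem242 lay nearest to Dusp6, and Sod1 and Hyls1 nearest to Spry2, all at 0.02 or less. For Spry1 the nearest were Prkaca and Fblim1, at 0.01 each, and for Spry4 they were Dnmt3a and Pnpla6, at 0.03 each. Slc50a1 and Naaladl1 lay nearest to Egr1, at 0.04 and 0.06. Smad3, which encodes a mediator of TGF-beta signalling, measured 34.2 ± 2.13 FPKM in knockout and 19.97 ± 0.909 FPKM in wild-type cells. Dnmt3a, a DNA methyltransferase gene, measured 2.02 ± 0.253 FPKM in knockout and 4.00 ± 0.142 FPKM in wild-type cells. All these profiles rest on the same 6 libraries and include the difference between the genotypes, so the likeness is a description.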

How the data were processed

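RNA sequencing of 6 libraries, 3 of Carmil3 knockout and 3 of wild-type 4T1 cells, was analysed from 1 table that the authors deposited, with 0 columns left unmapped. The deposited values have the form of FPKM, as read from their spacing, since no header names the unit. The submitters' processing notes list mm10, HTSeq 0.6.0, TopHat2 2.0.12, TopHat, Bowtie2, Bowtie and CASAVA; the role of each, the gene annotation and the strand setting were not stated. Symbols, coordinates and exon lengths came from GENCODE M21 (GRCm38, the assembly also called mm10), which matched 23587 rows.

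For 11171 genes that reached 1 FPKM in 3 or more libraries, log2(FPKM + 1) was fitted by limma 3.58.1 (R 4.3.3; moderated variances with a mean trend and robust estimation). P-values were adjusted over these genes by Benjamini-Hochberg, threshold 0.05. On this scale the change of low genes is understated. The value times exon length was a whole multiple of 1 step per library for between 91.9% and 92.2% of values of up to 500 reads (within 0.02 of a read); the smallest total that fits was used, and the listed genes sum to more than it, so depths are relative. Same-genotype pairs differed by 3.02 to 19.0 chi-square units per degree of freedom at the relative depths, so none was treated as a library deposited again; this does not tell technical from biological replicates. The fit was run on simulated reads with a common spread beyond counting noise, few changed genes and no library set apart. It called 94.0% of 67 genes changed 1.5-fold, and 10 unchanged genes. With settings unlike these data, that run does not measure the error of the calls made here. Python 3.11.15 was used for summaries.

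The members, lists and alternatives were chosen with earlier results of these data known. All 10 members are named; of each list up to 4 called genes per direction whose larger group mean reached 2 FPKM were named by rule, and further genes after their values were seen.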

Additional observations from a re-analysis of the deposited data

How the results depend on the processing

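Of 17 alternatives (16 for Dusp1 and Egr1, which a filter of 5 FPKM removes), 5 leave the estimated change as it is. Under the 12 that estimate it anew, the 6 called genes kept their direction in 72 of 72 values. The values of these 6 genes do not overlap between the genotypes. Leaving out 1 library or changing the pseudocount therefore could not reverse their direction, and only the remaining settings could. Tested against a 1.5-fold change, 0 members were called higher and 0 lower, and of the pathway lists 2 genes were called higher and 5 lower, because the test asks for a larger change. With 1 library left out, between 3 and 4 members were called higher and between 1 and 2 lower. In the pathway lists between 19 and 25 genes were then called higher and between 12 and 16 lower. Over all genes tested, between 10.6% and 18.3% were then called higher and between 12.2% and 19.9% lower. The share in either direction was lowest without wild-type replicate 1, at 22.7%, against 35.6% with all libraries. Dusp5 turned to a log2 change of 0.0204 on centring on neighbours (adjusted p = 0.821), which subtracts a negative neighbour median. Deviations from the group mean correlated at -0.06, 0.15 and 0.10 between same-numbered libraries of replicates 1, 2 and 3. Between differently numbered libraries the correlations ran from -0.20 to 0.08. Such values cannot decide, with 3 libraries a group, whether the numbers pair the libraries. With the replicate number as a block 4 members were called higher and 2 lower, and in the pathway lists 23 and 18. In that fit 17% of all genes tested were called higher, 19% lower and 36% in either direction. Limma-voom on recovered reads called 2022 of 11161 genes higher and 2250 lower, among them 4 and 2 members. Median-of-ratios rescaling and quantile normalization moved the median over all genes to 0.00 and 0.01 and changed no member's call. Of the 41 calls in the pathway lists 33 had a value under all 16 alternatives other than the 1.5-fold test, and 24 of these held. The other 8 were removed by the filter of 5 FPKM, and 4 of them held elsewhere. With 3 libraries a group, differences as small as those of Spred1, Spred2, Dusp1 and Dusp5 did not pass limma's test, although the Dusp5 values did not overlap.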
